A study of Mus musculus with 8 samples.

Results

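The measurements concern 10 chemokine-system genes that lymphocytes and dendritic cells use to find each other, followed across epithelial, myeloid, dendritic and T cells of the mouse tongue. They comprise 7 ligands (Cxcl9, Cxcl10, Cxcl16, Ccl5, Ccl17, Ccl22 and Xcl1) and 3 receptors (Cxcr3, Cxcr6 and Ccr7), taken by name from the 32285 genes of the count matrices, with earlier results of these data known. Tongue epithelia were taken on day 15 after induction, sorted for viable cells and profiled by droplet single-cell RNA sequencing, with 2 libraries for each of 4 genotypes. The comparison asks how the expression of these genes differed when 1 or both of a pair of oncogenic transgenes were switched on in the basal epithelium.

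All mice carried Krt14-CreERT and LSL-rtTA, together with an H2B-GFP reporter according to the study's methods, and were adult littermates. The controls (N) had no further transgene. The E mice carried tetON_E6-E7, which encodes the human papillomavirus oncoproteins E6 and E7. The Y mice carried tetON_YAP1S127A, a constitutively active form of the Hippo pathway effector YAP, and the EY mice carried both. Tamoxifen injected into the tongue and a doxycycline diet were given to every group, so the transgenes were switched on in Krt14-positive basal cells and their progeny, and immune cells do not normally use that promoter. The study used 2 mice per genotype, but the label of N2 carries more than 1 animal number and may be a pool, so p-values measure the spread between these libraries.

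CXCL9 and CXCL10 are ligands of CXCR3, an attractant receptor of activated T and NK cells, and are classical targets of interferon-gamma. CXCL16 is made as a membrane-bound protein that the proteases ADAM10 and ADAM17 can shed, and its receptor CXCR6 marks resident and effector lymphocytes. CCL17 and CCL22 are made by dendritic cells and macrophages and act through CCR4. CCL5 attracts T cells and monocytes, XCL1 is released by NK and CD8 T cells and binds XCR1 on cross-presenting dendritic cells, and CCR7 leads mature dendritic cells and naive or central memory T cells towards CCL19 and CCL21.

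Of the 10 genes, Cxcl9 (chr5:92321347-92328079, minus strand) and Cxcl10 (chr5:92346638-92348889, minus strand) lie beside each other on the GRCm38 build, as do Ccl22 (chr8:94745590-94751699, plus strand) and Ccl17 (chr8:94810453-94812036, plus strand). Cxcl16 (chr11:70453983-70459984, minus strand), Ccl5 (chr11:83525778-83530518, minus strand) and Ccr7 (chr11:99144196-99155077, minus strand) share chromosome 11. Xcl1 lies at chr1:164931644-164935527 (minus strand), Cxcr3 at chrX:101731535-101734269 (minus strand) and Cxcr6 at chr9:123806475-123811760 (plus strand).

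The 250 bases upstream of the annotated start are shown for the 3 ligands whose levels are the main subject below and whose windows held a match. RefSeq windows of GRCm38.p6 matched 7 of the 10 genes, all but Cxcl16, Ccl5 and Ccr7. Capitals mark matches, on either strand, to an interferon-stimulated response element core (GAAANNGAA), a gamma-activated sequence (TTCNNNGAA) or a kappaB motif (GGGANNTTC). The Cxcl9 window (chr5:92328080-92328329) held an element core that began 175 bases upstream of the start and a kappaB match at 154 bases. The Cxcl10 window (chr5:92348890-92349139) held the same 2 kinds of match, at 213 and 159 bases. The Ccl17 window (chr8:94810203-94810452) held a gamma-activated sequence match at 99 bases and neither of the others.
Cxcl9: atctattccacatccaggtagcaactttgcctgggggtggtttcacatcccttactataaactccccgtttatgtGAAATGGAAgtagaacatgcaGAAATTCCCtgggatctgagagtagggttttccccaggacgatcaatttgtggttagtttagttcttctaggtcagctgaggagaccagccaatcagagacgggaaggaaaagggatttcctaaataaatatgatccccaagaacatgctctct
Cxcl10: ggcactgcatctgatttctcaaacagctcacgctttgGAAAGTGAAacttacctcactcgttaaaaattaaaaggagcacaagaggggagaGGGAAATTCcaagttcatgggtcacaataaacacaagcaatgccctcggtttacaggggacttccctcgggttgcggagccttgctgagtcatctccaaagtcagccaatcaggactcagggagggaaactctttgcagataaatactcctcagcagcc
Ccl17: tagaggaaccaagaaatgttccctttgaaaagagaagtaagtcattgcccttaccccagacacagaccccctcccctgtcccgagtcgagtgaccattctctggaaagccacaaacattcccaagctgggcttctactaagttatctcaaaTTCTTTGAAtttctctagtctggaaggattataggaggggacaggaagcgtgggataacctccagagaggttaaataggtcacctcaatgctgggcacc
Among 32851 windows of the same length, 7.13% held the element core, 7.02% the gamma-activated sequence and 3.23% the kappaB motif, and a match of letters is a description, not a binding site. None of the 3 motifs was found in the windows of Ccl22, Xcl1, Cxcr3 and Cxcr6. These 4 windows, set by RefSeq starts, ran into the gene spans given above, by only a few bases for Xcl1 and Cxcr6 and further for Ccl22 and Cxcr3, so they do not hold upstream bases alone.

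From 42550 deposited barcodes, 25199 cells passed the filters (1520 to 5407 per library, with a median of 8809 to 13972 UMIs per cell) and fell into 23 clusters. Epithelial-like clusters held 12891 cells, Lyz2-positive myeloid-like clusters 3547, Cd74-high dendritic-like cells 524 and Cd3e-positive T-like clusters 5281. Epithelial-like cells were uneven over the libraries, with 3396 and 399 in N, 3976 and 555 in E, 1317 and 1040 in Y, and 166 and 2042 in EY. Each class was named from listed markers, of which 17 or 18 of 18 were detected in the epithelial clusters, 13 or 17 of 17 in the myeloid, 13 of 18 in the dendritic and 13 of 17 in the T clusters. Levels are given as CPM, the UMIs of a gene summed over all cells of a class in 1 library and scaled to 1000000 UMIs of those cells. Yap1 in the epithelial-like cells was 35.2 and 40.3 CPM in N and 32.5 and 47.7 CPM in E, against 215 and 461 CPM in Y and 221 and 169.9 CPM in EY, in the direction the labels give. Fewer transcripts per cell and fewer expressing cells within a class cannot be told apart in such sums. Libraries shared 2 to 19 cell barcodes per pair. Keratin 14 RNA was found in immune cells too, with 467 to 822 CPM in the myeloid, dendritic, T and neutrophil-like cells of EY2.

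The genes divided by cell class. Summed over all libraries, macrophage-like myeloid cells held most UMIs of Cxcl9 (60.5%), Cxcl16 (62.7%) and Ccl17 (75.8%), dendritic cells most of Ccl22 (88.1%), T cells most of Ccl5 (74.1%), Cxcr3 (83.8%) and Cxcr6 (91.2%), and NK-like cells most of Xcl1 (65.3%). Cxcl10 was shared between epithelial (41.3%) and myeloid cells (39.4%), and Ccr7 between dendritic (42.5%) and T cells (40.6%). Epithelial cells, although they were the most numerous class, held 30.5% of Cxcl9 and 23.1% of Cxcl16 UMIs and close to none of the receptors. These shares move with the number of cells of each class and describe where the transcripts lay.

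**Figure D1:**
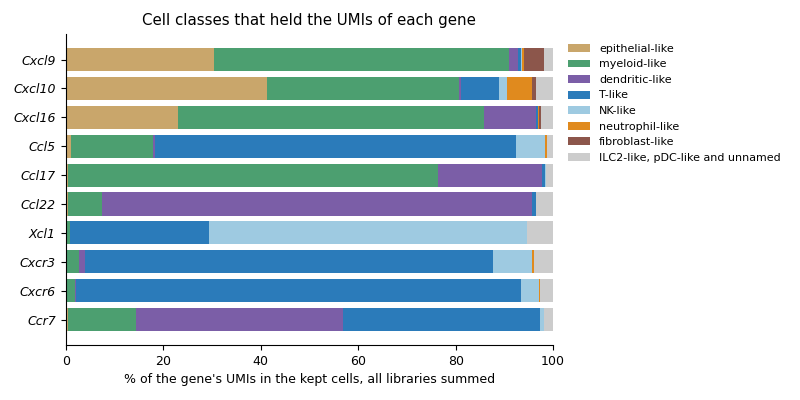
Percent of each gene's UMIs (x axis) that lay in each cell class, all 8 libraries summed. Ccl22 lay mostly in dendritic-like cells (88.1%), Cxcr6 in T-like cells (91.2%) and Xcl1 in NK-like cells (65.3%), whereas Cxcl10 was split between epithelial-like (41.3%) and myeloid-like cells (39.4%).

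Mean levels per class, which do not depend on cell numbers, did not always rank as these shares did. Cxcl10 averaged 681 ± 618 CPM in myeloid and 220 ± 288 CPM in T cells (SD, n = 8 libraries). It averaged 110 ± 103 CPM in epithelial cells, the class with the largest share of its UMIs. The T cell mean was 636 CPM in E and 47.3 to 118 CPM in the other groups, and the medians were 83.0 CPM in T and 73.2 CPM in epithelial cells. In EY the T cell mean (118 CPM) lay below the epithelial mean (215 CPM). Across the 8 libraries Cxcl16 averaged 742 ± 240 CPM in myeloid and 637 ± 113 CPM in dendritic cells (SD, n = 8), which overlapped, against 53.5 ± 45.7 CPM in epithelial and 5.18 ± 4.23 CPM in T cells. Ccl22 averaged 419 ± 309 CPM in dendritic and 9.50 ± 8.76 CPM in myeloid cells, with no overlap. Ccl17 was higher in dendritic cells on average (614 ± 678 CPM) than in myeloid cells (366 ± 402 CPM), but the libraries overlapped. Cxcr6 averaged 532 ± 148 CPM and Cxcr3 65.9 ± 24.0 CPM in T cells, and neither exceeded 1.05 CPM in epithelial cells. Classes came from clustering the same cells, so these differences are descriptions without a test.

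**Figure D2:**
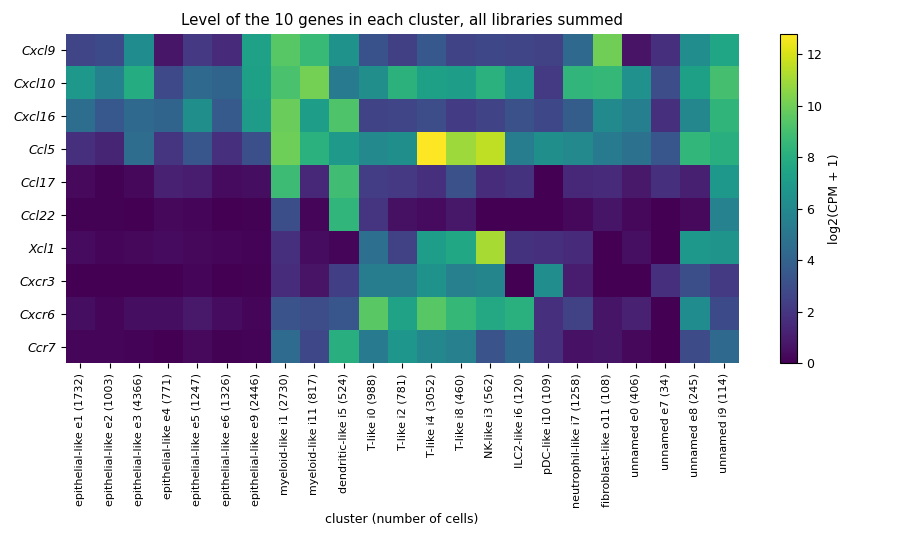
Level of the 10 genes (rows) in each of the 23 clusters (columns, with cell numbers), as log2(CPM + 1) on all libraries summed. Ccl22 and Ccl17 were brightest in the dendritic-like cluster together with Ccl17 in the myeloid-like cluster i1, Cxcr6 in the T-like clusters i0 and i4, and Xcl1 in the NK-like cluster i3.

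Each class was compared between genotypes with edgeR's quasi-likelihood test on UMIs summed per library, and Benjamini-Hochberg adjustment over all genes tested. EY, Y and E were each compared with the same N libraries. A YAP effect (the 4 libraries with tetON_YAP1S127A against the 4 without) and an E6-E7 effect were taken from an additive model, and the interaction tested whether EY departed from the sum of E and Y. A gene was called at an adjusted p under 0.05.

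In epithelial cells 7 of the 10 genes had enough UMIs to be tested (not Ccl22, Cxcr3 and Ccr7). Between EY and N, 3 of the 7 were called, all higher in EY (Cxcl10, Cxcl16 and Ccl5), against 24.5% of the 13429 genes tested. Between Y and N 1 of 7 was called (Cxcl16) against 1.21% of all genes, and by the YAP effect 1 of 7 (Cxcl16) against 12.1%. No member was called between E and N (0.313% of all genes), by the E6-E7 effect (0.536%) or by the interaction (0%) with edgeR. In those 3 comparisons 2, 3 and 0 of the 7 had an unadjusted p under 0.05, and DESeq2 called 0, 1 and 0. By the interaction, 1766 of all genes had an unadjusted p under 0.05, and DESeq2 called 118. For E against N and the E6-E7 effect such counts over all genes are not given, so those member counts have no background here.

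The CXCR3 ligands were low in control epithelium. Cxcl10 in epithelial cells was 27.8 and 2.0 CPM in N, 259 and 74.2 CPM in E, 72.1 and 18.9 CPM in Y, and 221 and 209 CPM in EY, each in replicate order. The 4 libraries with E6-E7 lay at 74.2 CPM or above and the 4 without at 72.1 CPM or below, and the N libraries differed widely from each other. Between EY and N the log2 fold change was 3.80 (SE 1.11, adjusted p = 0.0436, edgeR), and between E and N it was 3.35 (SE 1.08, adjusted p = 0.796). The EY call was lost without N1 (log2 fold change 6.73, adjusted p = 0.0517), N2 (0.111), EY1 (0.0721) or EY2 (0.157), with at least 200 genes per cell (0.0504), with Scrublet calls removed (0.0522), with marker gates (0.0675) and with the unnamed epithelial clusters added (log2 fold change 2.95, adjusted p = 0.056). The E6-E7 effect of 2.80 (SE 0.74) was not called (adjusted p = 0.238).

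Cxcl9, the neighbour of Cxcl10, showed a similar order with wider spread. Its epithelial level was 10.6 and 0.354 CPM in N, 52.6 and 17.3 CPM in E, 54.6 and 5.08 CPM in Y, and 65.3 and 179 CPM in EY. EY libraries were the highest and the Y and N libraries overlapped. The log2 fold change between EY and N was 4.35 (SE 1.37) with an adjusted p of 0.054 by edgeR. Without 1 library it ranged from 3.35 (without EY2, adjusted p = 0.252) to 8.45 (without N1, not called). It was called by DESeq2 (adjusted p = 0.0305) and by edgeR without Y1 (0.0391) or Y2 (0.0372). The macrophage gene Lyz2 in epithelial cells lay between 0.015% and 0.379% of the myeloid level, and Cxcl10 between 1.87% and 56.8% of it. The part of myeloid RNA in the epithelial sums was not tested.

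The levels of these ligands were uneven over the epithelium. Cluster e3, led by Pappa, Hpgd and Crabp1, held 241 CPM of Cxcl10 and 73.4 CPM of Cxcl9 on all libraries summed, and cluster e9, led by Crct1, Klk12 and Cnfn, held 155 and 158 CPM. Cluster e9 made up 74.1% and 95.6% of the epithelial cells in EY1 and EY2, 10.0% and 18.8% in Y, and 0.0294 to 5.01% in N and E. Cluster e3 made up 45.6 to 57.5% of epithelial cells in N and E, 8.4% and 6.2% in Y, and 7.8% and 1.4% in EY. Within e3 Cxcl10 was 39.5 and 3.50 CPM in N, 419 and 116 CPM in E, 309 and 72.2 CPM in Y, and 933 and 5430.1 CPM in the 13 and 28 e3 cells of EY1 and EY2.

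**Figure D3:**
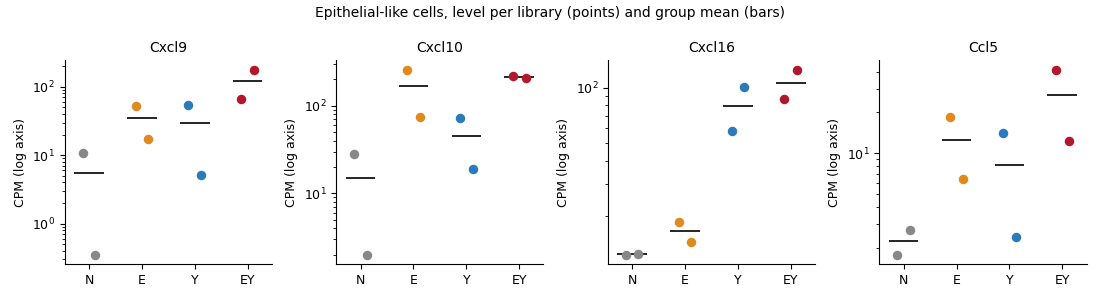
Level of Cxcl9, Cxcl10, Cxcl16 and Ccl5 in epithelial-like cells of each library (points, CPM on a log axis) and the mean of each group of 2 libraries (bars). For Cxcl16 the 4 Y and EY libraries (57.8 to 126 CPM) lay above the 4 N and E libraries (12.3 to 18.6 CPM), while the N libraries were far apart for Cxcl9 and Cxcl10.

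Interferon-response genes were raised in the same epithelial cells. Of the type I interferon response list, 15 of 15 tested genes were called higher in EY than in N, with log2 fold changes of 4.94 for Rsad2, 3.29 for Isg15, 3.2 for Bst2 and 2.68 for Irf7, and a median of 2.65 against -0.06 over all genes. Between E and N, 13 of the 15 were called higher, with a median of 3.01. Between Y and N 1 of the 15 was called, although 13 had an unadjusted p under 0.05 and DESeq2 called 8. Of the interferon-gamma axis list, 12 of 23 were called higher in EY and none lower, where 24.5% of all genes were called in either direction, among them the guanylate-binding proteins Gbp2 (2.87), Gbp3 (2.71) and Gbp7 (2.21) and the immunity-related GTPase Igtp (1.90). None of the 23 was called between E and N by edgeR, although 12 had an unadjusted p under 0.05, DESeq2 called 9 and the median was 1.38. The transcription factor gene Irf1 was not called between EY and N (log2 fold change 0.79, adjusted p = 0.303, edgeR). Ifng itself was measured in T cells, at 198 and 446 CPM in N, 334 and 377 CPM in E, 429 and 90.7 CPM in Y, and 193 and 453 CPM in EY, which overlapped (EY against N 0.08, adjusted p = 0.988).

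In myeloid cells Cxcl9 and Cxcl10 were higher than in epithelium in every library, and no difference between genotypes passed the test. Cxcl9 was 603 and 320.0 CPM in N, 1419.9 and 810.1 CPM in E, 549 and 43.3 CPM in Y, and 866 and 928 CPM in EY. The 4 libraries with E6-E7 all lay above the 4 without (43.3 to 603 CPM), but the E6-E7 effect of 1.57 (SE 0.63) was not called (adjusted p = 0.358, edgeR). Cxcl10 was 496 and 107 CPM in N, 1843 and 641 CPM in E, 445 and 147 CPM in Y, and 1400.8 and 368 CPM in EY, with groups that overlapped and an E6-E7 effect of 1.95 (SE 0.63, adjusted p = 0.297). The 2 myeloid clusters differed in these ligands, since i1, led by C1qc, C1qa and C1qb, held 705 CPM of Cxcl9 and 561 CPM of Cxcl10, and i11, led by Saa3, Nos2 and Chil3, held 393 and 1109.5 CPM. Cluster i11 made up 61.7% and 52.3% of the myeloid cells in EY and 1.1 to 9.0% elsewhere. No member was called in myeloid cells in any comparison by edgeR, among the 9 tested (not Xcl1). All genes were called at 6.15% between EY and N, 0.0821% between Y and N, 0.0308% between E and N, 1.32% by the YAP effect, 0.0103% by the E6-E7 effect and 0.0410% by the interaction. The members with an unadjusted p under 0.05 numbered 1, 1, 1, 1, 2 and 1 of 9 in that order, and DESeq2 called 0 in the first 5 comparisons and 1 by the interaction. The same counts over all genes are not given, so they have no background here.

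In dendritic cells 8 members were tested (not Xcl1 and Cxcr3). Between EY and N 2 of 8 were called (Ccl17 and Cxcl10, both higher in EY) against 2.97% of the 6658 genes tested, between Y and N 1 of 8 (Ccl17) against 0.285%, and by the YAP effect 2 of 8 (Ccl17 and Cxcr6) against 2.61%. No member was called between E and N (0% of all genes, with 445 at an unadjusted p under 0.05 and 19 by DESeq2), by the E6-E7 effect (0.135%) or by the interaction (0.0150%). In these 3 comparisons edgeR gave 5, 5 and 2 of the 8 an unadjusted p under 0.05, and DESeq2 called 0, 1 and 0. For the E6-E7 effect and the interaction the same counts over all genes are not given.

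Cxcl10 in dendritic cells was 7.72 and 13.9 CPM in N, 85.6 and 12.8 CPM in E, 31.0 and 20.2 CPM in Y, and 216 and 61.5 CPM in EY. The log2 fold change between EY and N was 3.70 (SE 0.72, adjusted p = 0.0199, edgeR), but 70 of the 92 UMIs of EY1 came from 1 cell. The call was lost without EY1 (log2 fold change 2.42, adjusted p = 0.399), N1 (0.118) or N2 (0.0914), with at least 200 genes per cell (0.141), with no upper limits on cells (0.0529) and with Scrublet calls removed (0.122). Cxcl9 was 21.6 and 53.4 CPM in N, 295 and 44.7 CPM in E, 87.2 and 25.2 CPM in Y, and 181 and 528 CPM in EY, and was not called (3.13, SE 0.82, adjusted p = 0.066). It was called without E1 (adjusted p = 0.0348), E2 (0.0332), Y1 (0.0209) or Y2 (0.0215).

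T cells carried the receptor of this axis and also transcripts of its ligand. In T cells 9 members were tested (not Ccl22). Cxcl10 was called between E and N, as 1 of 9 against 0.0593% of the 10122 genes. Its level was 55.0 and 39.6 CPM in N, 872 and 399 CPM in E, 80.8 and 78.9 CPM in Y, and 151 and 85.2 CPM in EY. Both E libraries lay above all others, the log2 fold change was 3.76 (SE 0.43, adjusted p = 0.0342, edgeR), and the call was lost without N1 (0.261), N2 (0.208) or E1 (0.117), with at least 200 genes per cell (0.0568) and with marker gates (0.0582). After thinning each cell to 2000 UMIs, 23.1% and 14.9% of T cells in E had a Cxcl10 UMI against 3.36% and 3.2% in N (29.1% and 23.3% against 5.49% and 7.65% before thinning). Lyz2 in T cells lay between 0.028% and 1.2% of the myeloid level, while Cxcl10 was 47.3% and 62.3% of the myeloid level in E1 and E2. In the same comparison 4 of 15 type I interferon response genes were called higher in T cells, namely Usp18 (3.33), Rsad2 (3.21), Isg15 (2.90) and Ifit2 (2.41).

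Cxcl9 in T cells lay between 0.677 and 21.8 CPM, with both EY libraries the highest, and was not called between EY and N (4.17, SE 1.11, adjusted p = 0.246, edgeR). It was called by DESeq2 (0.00601) and by edgeR without Y1 (0.0217) or Y2 (0.0154). Cxcl9 in T cells averaged 1.26 CPM in N, 6.48 CPM in E, 6.76 CPM in Y and 21.4 CPM in EY. The neutrophil and myeloid gene S100a8 was also highest in EY in T cells, but was lower in E than in N. It was 27.8 and 28.5 CPM in N, 9.93 and 12.5 CPM in E, 157 and 17.3 CPM in Y, and 916 and 848 CPM in EY. Krt14 in T cells was 101 to 321 CPM in the other 7 libraries and 822 CPM in EY2. Their part in the result was not tested.

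Cxcr3 in T cells was 55.0 and 91.4 CPM in N, 91.0 and 98.3 CPM in E, 62.3 and 41.6 CPM in Y, and 43.1 and 44.7 CPM in EY. Both EY libraries lay below both N libraries, but the change of -0.67 (SE 0.33) was not called (adjusted p = 0.464, edgeR), nor was the YAP effect of -0.69 (SE 0.23, adjusted p = 0.307). It was highest in T cluster i4, which was led by Gzmf, Ccl5 and Cd8b1 (89.8 CPM). In i4 alone, a restriction chosen after the data were seen, Cxcr3 was 145 and 112 CPM in N, 139.7 and 146 CPM in E, 70.2 and 113 CPM in Y, and 47.0 and 59.0 CPM in EY, and it was called lower in EY than in N (-1.21, adjusted p = 0.0397).

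Epithelial Cxcl16 separated the libraries with YAP1S127A from those without. In epithelial cells Cxcl16 was 12.3 and 12.4 CPM in N, 18.6 and 14.5 CPM in E, 57.8 and 100.5 CPM in Y, and 86.2 and 126 CPM in EY. The 4 libraries with YAP1S127A lay between 57.8 and 126 CPM and the 4 without between 12.3 and 18.6 CPM, with the control libraries almost equal. The log2 fold change was 3.13 between EY and N (SE 0.31, adjusted p = 0.0036, edgeR), 2.65 between Y and N (SE 0.31, adjusted p = 0.0266) and 2.72 for the YAP effect (SE 0.21, adjusted p = 0.000868). The EY and YAP calls were kept in all 8 fits without 1 library and in all 9 other alternatives. The Y call was lost without N1 (0.215), N2 (0.178) or Y2 (0.0629), with marker gates (0.0657) and with the unnamed epithelial clusters added (0.128).

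The share of epithelial cells with a Cxcl16 UMI was higher in each YAP1S127A library than in each library without it. It was 15.1% and 20.6% in N, 19.5% and 23.2% in E, 52.1% and 65.0% in Y, and 55.4% and 79.2% in EY. At 2000 UMIs per cell, which left out at most 2 epithelial cells of a library, it was 1.80 to 3.26% in N and E and 10.0 to 21.2% in Y and EY. The thinned share in T cells, which lie near the floor for this gene, was 0 to 2.85%, with median depths of 2914 to 7881 UMIs against 12661.5 to 23560 UMIs in epithelial cells. Lyz2 in epithelial cells did not exceed 17.2 CPM, while in myeloid cells it averaged 11471.5 CPM in N, 7661 CPM in E, 3390 CPM in Y and 3507 CPM in EY. Epithelial Cd74 averaged 15.1 and 12.7 CPM in N and E against 33.7 and 30.6 CPM in Y and EY. Epithelial S100a8 averaged 5.94 and 11.3 CPM against 31.4 and 420 CPM in the same order. The part of immune cell RNA in the Cxcl16 result was not tested.

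Cxcl16 was highest in the clusters that Y and EY epithelium formed. Cluster e9 held 131 CPM and cluster e5, led by H19, Plb1 and Yap1, held 82.2 CPM, against 10.4 to 23.7 CPM in the other epithelial clusters. Cluster e5 made up 53.6% and 46.6% of epithelial cells in Y, 11.4% and 1.3% in EY and at most 0.3% in N and E. Levels were also compared inside clusters that all genotypes shared, without a test. In the cycling cluster e1, led by Anln and histone genes, Cxcl16 was 12.8, 11.3, 20 and 18.4 CPM in the N and E libraries and 37.0, 58.7, 80.3 and 47.4 CPM in the Y and EY libraries, although EY1 had 4 and EY2 had 14 such cells. In e3 the corresponding values were 15.8, 15.4, 22.6 and 14.8 CPM against 36.1, 25.0, 17.8 and 100.4 CPM, so that EY1 overlapped the libraries without YAP1S127A. In e2 they were 6.83, 11.3, 11.1 and 9.18 CPM against 26.5, 5.95, 0 and 58.1 CPM, with 1 cell in EY1 and 7 in EY2. There Y2 lay below all 4 libraries without YAP1S127A. In e6 they were 7.14, 8.47, 10.6 and 6.14 CPM against 27.1, 17.9, 34.3 and 14.8 CPM, with 5 cells in EY1 and 13 in EY2. In e9 they were 0, 33.9, 49.5 and 0 CPM against 114, 201, 99.8 and 127 CPM, with 1 to 20 cells in the N and E libraries. Within both e6 and e9 each YAP1S127A library lay above each library without it. The sheddases gave no matching rise, since Adam10 was called lower in EY epithelium (-0.56, adjusted p = 0.04) and Adam17 was not called.

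Professional antigen-presenting cells expressed Cxcl16 in every genotype. In dendritic cells it was 544 and 447 CPM in N, 623 and 606 CPM in E, 662 and 766 CPM in Y, and 798 and 651 CPM in EY, with each YAP1S127A library above each library without it. The YAP effect was 0.46 (SE 0.15) and was not called (adjusted p = 0.135, edgeR), nor was EY against N (0.64, SE 0.22, adjusted p = 0.141), which was called only with marker gates (1.30, adjusted p = 0.0227) and at Leiden resolution 1.0 (0.87, adjusted p = 0.0386). In myeloid cells it was 726 and 587 CPM in N, 1025 and 828 CPM in E, 929 and 985 CPM in Y, and 433 and 422 CPM in EY. The EY libraries were the lowest, without a call (-0.30, SE 0.21, adjusted p = 0.402), and the sign turned in the C1q-high cluster i1 alone (0.46, adjusted p = 0.311), a restriction added after the data were seen. Cluster i1 held 936 CPM and the EY-rich cluster i11 144 CPM.

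Its receptor Cxcr6 lay mostly in T cells. Its level there was 762 and 488 CPM in N, 444 and 617 CPM in E, 686 and 504 CPM in Y, and 451 and 302 CPM in EY. EY2 was the lowest library and EY1 lay close to E1, and the change against N was not called (-0.60, SE 0.31, adjusted p = 0.476, edgeR). Among T clusters Cxcr6 was about equal in i0, led by the gamma-delta T cell genes Trdc and Il17a (727 CPM), and in i4 (721 CPM), and lower in the cycling cluster i8 (363 CPM) and the Foxp3-led cluster i2 (164 CPM).

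Small amounts of each partner appeared in the other's class. Cxcl16 in T cells was 1.33 and 2.18 CPM in N, 0.828 and 1.54 CPM in E, 9.74 and 6.43 CPM in Y, and 8.0 and 11.4 CPM in EY, from 1 to 126 UMIs per library. Its YAP effect of 2.48 (SE 0.37) was called (adjusted p = 0.0486, edgeR), as 1 of 9 members against 0.207% of genes, and the call was lost without N1 (0.106), N2 (0.111), E1 (0.16), E2 (0.254), Y1 (0.126), EY1 (0.137) or EY2 (0.101), with at least 200 genes per cell (0.0523), with Scrublet calls removed (0.055) and with marker gates (0.069). Lyz2 in T cells was 3.31, 11.5, 8.28 and 9.27 CPM in the N and E libraries. It was 18.6, 52.1, 23.1 and 11.4 CPM in the Y and EY libraries, where EY2 lay at the level of N2. In the order Y1, Y2, EY1 and EY2, T cell Cxcl16 was 1.05%, 0.653%, 1.84% and 2.71% of its myeloid level. Lyz2 was 0.77%, 1.2%, 0.51% and 0.461% of its own myeloid level in that order. The part of myeloid RNA in the Cxcl16 result was not tested. In dendritic cells Cxcr6 was 3.09 and 2.79 CPM in N, without a UMI in both E libraries, 23.4 and 8.66 CPM in Y, and 25.8 and 20.5 CPM in EY, from 0 to 40 UMIs. The YAP effect was called (3.26, SE 0.69, adjusted p = 0.0255) and was lost without N1 (0.0757), E2 (0.0672), Y1 (0.176), EY1 (0.116) or EY2 (0.0577). It was also lost with at least 200 genes per cell (0.248), with no upper limits on cells (0.34), with Scrublet calls removed (0.274) and at Leiden resolution 1.0 (0.58, adjusted p = 0.617). The T cell gene Cd3e moved with it in dendritic cells, at 0 to 2.32 CPM in N and E and 2.89 to 23.4 CPM in Y and EY, and its part in the result was not tested.

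Ccl17 had the largest log2 fold change between EY and N of the 8 members tested in dendritic cells. Its level was 72.6 and 25.1 CPM in N, 219 and 65.4 CPM in E, 472 and 1248 CPM in Y, and 936 and 1876 CPM in EY. All 4 YAP1S127A libraries lay above the other 4. The log2 fold change was 5.06 between EY and N (SE 0.70, adjusted p = 0.00397, edgeR), 4.25 between Y and N (SE 0.68, adjusted p = 0.0256) and 3.84 for the YAP effect (SE 0.48, adjusted p = 0.00203). The share of dendritic cells with a Ccl17 UMI after thinning was 1.68 to 10.9% in N and E and 32.3 to 40.0% in Y and EY, against at most 0.38% in epithelial cells. The EY call was kept in all 8 fits without 1 library and the Y call was lost without N1 (0.0606) or N2 (0.253). With marker gates EY against N was 2.92 (adjusted p = 0.07) and Y against N had an adjusted p of 0.0772.

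At Leiden resolution 1.0 the contrast was much smaller (EY against N 0.71, adjusted p = 0.668, and a YAP effect of 1.12, adjusted p = 0.325). There the dendritic class had 1706 cells instead of 524, because a cluster of 1139 cells led by Ccl24, with 9 of 18 dendritic markers and Ccl17 among its leading genes, was named dendritic rather than myeloid. That cluster held 654 cells of Y1 and 154 of Y2. The Ccl17 calls apply to the Cd207-led dendritic cells as drawn at resolution 0.3 and not to the wider class.

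**Figure D4:**
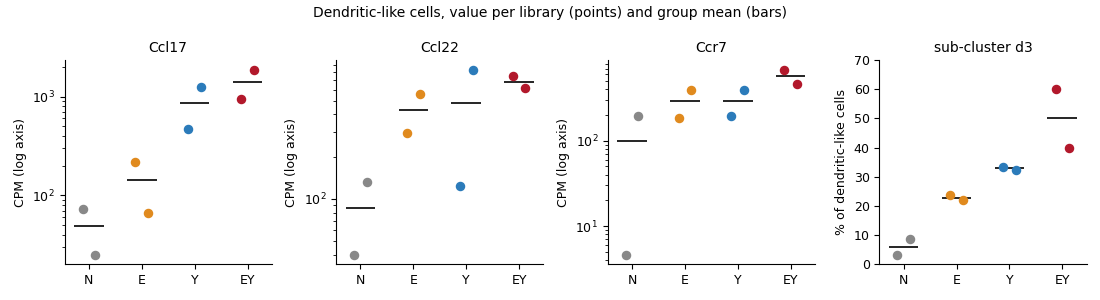
Ccl17, Ccl22 and Ccr7 in dendritic-like cells of each library (points, CPM on a log axis), with the mean of each group of 2 libraries (bars), and the percent of dendritic-like cells in sub-cluster d3 (right, linear axis from 0). Ccl17 in the 4 Y and EY libraries (472 to 1876 CPM) lay above the N and E libraries (25.1 to 219 CPM), and the d3 share was 3.08 to 8.40% in N and 40.0 to 60.0% in EY.

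Ccl22 and Ccr7 were higher on average in EY than in N and did not pass the test. Ccl22 was 40.2 and 131 CPM in N, 296 and 557 CPM in E, 123 and 835 CPM in Y, and 746 and 620.3 CPM in EY. Both E and both EY libraries lay above N, and Y1 lay within the N range. The change between EY and N was 2.99 (SE 0.74, adjusted p = 0.0521, edgeR), and it was called with RLE scaling (0.0486), with no upper limits on cells (0.0235), and without Y1 (0.00148) or Y2 (0.00166). Ccr7 was 4.63 and 194 CPM in N, 185 and 396 CPM in E, 195 and 391 CPM in Y, and 680.4 and 467 CPM in EY, where EY was highest and N2 lay within the E and Y range. The change was 2.48 (SE 0.83, adjusted p = 0.138) and was called without N2 (7.03, adjusted p = 0.00589) and with no upper limits on cells (0.0465).

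The 3 genes were concentrated in 1 of 4 dendritic sub-clusters. Sub-cluster d3 (124 cells), led by the maturation genes Fscn1, Il4i1 and Cacnb3, held 1437 CPM of Ccl17, 1411 CPM of Ccl22 and 1148 CPM of Ccr7. Sub-cluster d0 (211 cells), in which the Langerhans cell genes Cd207 and Epcam were at 658 and 1326 CPM, held 258, 39.3 and 1.68 CPM. Sub-cluster d1 (112 cells), led by the cross-presenting dendritic cell gene Clec9a and by Naaa, held 13.1, 56.3 and 42.6 CPM. The cycling d2 (77 cells) held 256, 24.6 and 5.23 CPM. Cd207 and Epcam were not confined to d0, with 626 and 635 CPM in d1 and 475 and 932 CPM in d2. The d3 share of dendritic cells was 3.08% and 8.40% in N, 23.6% and 21.9% in E, 33.3% and 32.3% in Y, and 60.0% and 40.0% in EY, from 2 cells in N1 to 33 in Y1.

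Ccl17 and Ccl22 differed in how they were distributed over these cells. Within d3 Ccl17 was 48.6 and 24.1 CPM in N, 887 and 243 CPM in E, 984 and 2827 CPM in Y, and 1569.5 and 3579 CPM in EY, so it was high in d3 cells of the transgenic libraries and not in those of N. Outside d3 Ccl17 was 73.4 and 25.2 CPM in N, 32.4 and 6.37 CPM in E, 259.7 and 615 CPM in Y, and 72.1 and 723 CPM in EY. Ccl22 within d3 was listed at 0 in the 2 cells of N1 and was 837 CPM in N2, 1286 and 2157 CPM in E, 386 and 2827 CPM in Y, and 1293 and 1485 CPM in EY. Outside d3 Ccl22 was 0 to 71.9 CPM. Ccr7 within d3 was 0 in N1, 2186 CPM in N2 and 624 to 1587 CPM in the other libraries. The values within sub-clusters rest on few cells and were not tested, and the sub-cluster borders were drawn at 1 setting.

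Genes of the dendritic cell maturation list were read from the same sums, where 2.97% of all genes were called between EY and N. Fscn1, Il4i1 and Socs2 were leading genes of d3, so their change is not separate from the d3 share. Of 17 tested genes of that list 6 were called higher in EY than in N and none lower, among them Nudt17 (3.99), Socs2 (3.86), Fscn1 (3.08) and Il4i1 (2.92), with a median of 1.17 against -0.02 over all genes. Of the interferon-gamma axis list 4 of 21 were called higher, namely Cd274 (3.28), Gbp5 (2.98), Socs1 (2.10) and Irf8 (1.09). Irf1 (1.09, adjusted p = 0.106) was not called. Isg15 (2.15) was the only 1 of 14 type I interferon response genes called.

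Of the partners of these genes, Ccr4, the receptor of CCL17 and CCL22, was not called between EY and N in T cells. It was 30.5 and 10.5 CPM in N, 24.8 and 11.6 CPM in E, 2.63 and 25.0 CPM in Y, and 16.0 and 9.35 CPM in EY (EY against N -0.39, adjusted p = 0.911, edgeR). Ccl19, a ligand of CCR7, was found mainly in the fibroblast-like cluster, at 68.8 to 404 CPM. Ccl21a, which has near-identical gene copies that share reads, was close to 0 in all named classes. Cxcl11 stood in the list of other chemokine ligands, and its own values are not reported here.

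In myeloid cells Ccl17 was 682 and 111 CPM in N, 29.5 and 409.5 CPM in E, 364 and 1188 CPM in Y, and 97.9 and 42.4 CPM in EY. Libraries of 1 genotype differed several-fold and the groups overlapped, without a call (EY against N -2.15, SE 1.16, adjusted p = 0.29, edgeR). The change was -0.29 without N1, and at Leiden resolution 1.0 its sign turned (3.75, adjusted p = 0.228). The C1q-high cluster i1 held 443 CPM and i11 1.7 CPM. Ccl22 (1.09 to 26.5 CPM) and Ccr7 (1.43 to 59.5 CPM) were low in myeloid cells and were not called. Ccr7 averaged 2.32 CPM in N, 31.1 CPM in E, 24.4 CPM in Y and 18.4 CPM in EY. Its YAP1S127A libraries lay at 8.68 to 40.1 CPM and overlapped those without (1.43 to 59.5 CPM). Among other chemokine genes in myeloid cells, the inflammatory ligands Ccl3 (2.40) and Ccl4 (1.77) were called higher in EY than in N and the receptor Cx3cr1 (-2.46) lower.

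Ccr7 in T cells was 35.8 and 37.2 CPM in N, 46.3 and 37.8 CPM in E, 65.1 and 98.5 CPM in Y, and 118 and 58.2 CPM in EY. All 4 YAP1S127A libraries lay above the other 4. The YAP effect was 1.22 (SE 0.21, adjusted p = 0.0733, edgeR), and it was called by DESeq2 (0.000292) and by edgeR without EY2 (0.0393). Genes of dendritic cell maturation moved in the same T cell sums. By the YAP effect 1 of 14 tested genes of that list was called by edgeR and 4 by DESeq2, 9 had an unadjusted p under 0.05 and 13 had a positive log2 fold change. The called gene was Il4i1 (3.92, adjusted p = 0.011), at 0.579 to 0.828 CPM in the N and E libraries and 6.66 to 13.9 CPM in the Y and EY libraries, and Il4i1 was also a leading gene of the dendritic sub-cluster d3, where Ccr7 was high. Their part in the Ccr7 result was not tested. EY against N was 1.40 (SE 0.32, adjusted p = 0.21). In cluster i4 alone, chosen after the data were seen, Ccr7 was 21.2, 28.5, 27.1 and 30.3 CPM in the N and E libraries and 67.0, 104.8, 137.7 and 67.8 CPM in the Y and EY libraries, and both the YAP effect (1.79, adjusted p = 0.00231) and EY against N (2.06, adjusted p = 0.0119) were called. The Foxp3-led cluster i2 had the highest level (106 CPM), followed by i4 (60.2 CPM). None of the 17 tested genes of the T cell residency list was called between EY and N by edgeR, 2 of them having an unadjusted p under 0.05, and DESeq2 called 0.

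**Figure D5:**
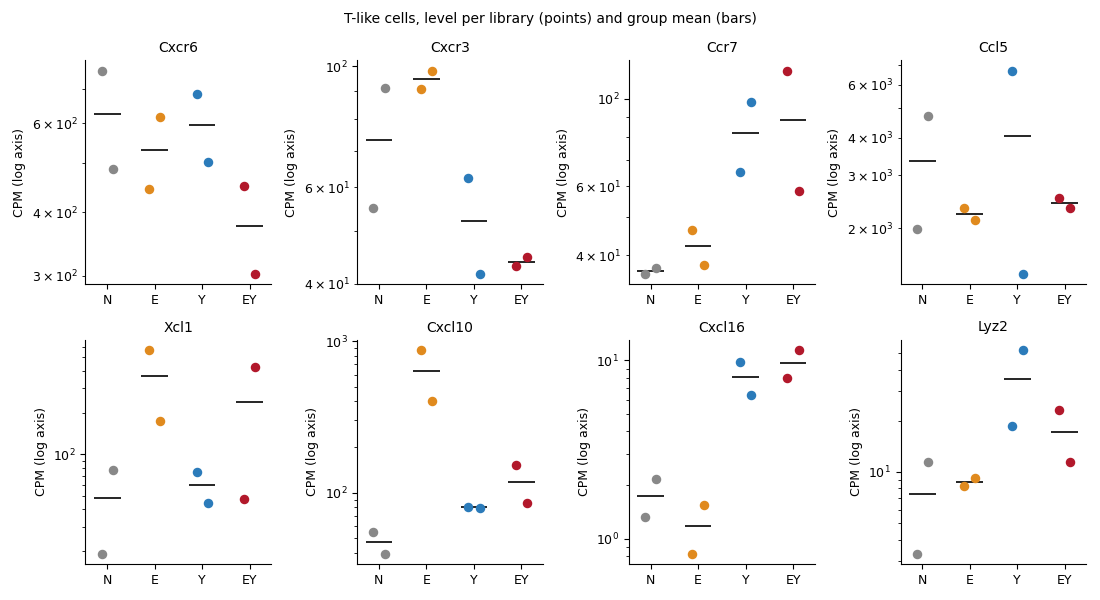
Level of 7 of the genes and of Lyz2, a myeloid gene, in T-like cells of each library (points, CPM on a log axis) with the mean of each group of 2 libraries (bars). Ccr7 and Cxcl16 lay higher in all 4 Y and EY libraries than in the N and E libraries, Cxcl10 was highest in both E libraries (872 and 399 CPM), and Ccl5, Xcl1 and Cxcr6 overlapped between groups.

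Ccl5, a product of cytotoxic lymphocytes, lay mostly in T cells. Its level there was 1994 and 4721 CPM in N, 2333 and 2126 CPM in E, 6685 and 1408 CPM in Y, and 2522 and 2336 CPM in EY. The Y libraries were the highest and the lowest, and EY lay within the N range (-0.38, SE 0.66, adjusted p = 0.863, edgeR), with the opposite sign without N2 (0.47). Cluster i4 held 7107 CPM of Ccl5, and its share of the T cells was 20.8% and 62.2% in N, 46.0% and 47.4% in E, 80.8% and 23.6% in Y, and 50.2% and 55.2% in EY. Within i4 Ccl5 was 7926 and 7459 CPM in N, 5233 and 4272 CPM in E, 8342 and 5393 CPM in Y, and 4454 and 4195 CPM in EY, not called (EY against N -0.78, adjusted p = 0.0863).

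NK-like cells held Ccl5 at a similar level, with a mean of 3238 CPM and a range of 1465 to 6630 CPM, against a mean of 3016 CPM in T cells. In myeloid, dendritic and epithelial cells Ccl5 was lower. In myeloid cells it was 666 and 288 CPM in N, 1469 and 1564 CPM in E, 1208 and 275 CPM in Y, and 461 and 643 CPM in EY (0.53, SE 0.62, adjusted p = 0.644, edgeR). Both E libraries were the highest there too, without a call between E and N (1.63, SE 0.63, adjusted p = 0.659). In dendritic cells it was 30.9 and 47.4 CPM in N, 653 and 219 CPM in E, 110.0 and 26.7 CPM in Y, and 63.4 and 25.6 CPM in EY. There both E libraries lay above all others, and E against N was 3.33 (SE 0.63, adjusted p = 0.133), called without Y1 (0.00907) or Y2 (0.00983). The T cell gene Cd3e had no UMI in the dendritic cells of either E library. NK-like cells in E averaged 1691 CPM of Ccl5 with 10.9 CPM of Cd3e, and myeloid cells in E averaged 1517 CPM of Ccl5. The part of RNA from other classes in the dendritic value was not tested. In epithelial cells Ccl5 was 1.79 and 2.71 CPM in N, 18.4 and 6.49 CPM in E, 14.1 and 2.39 CPM in Y, and 41.4 and 12.3 CPM in EY. Both N libraries lay below the E and EY libraries and overlapped Y. EY against N was 3.56 (SE 1.02, adjusted p = 0.0413), and the call was lost without N1 (0.192), N2 (0.116), EY1 (0.0998) or EY2 (0.0935), with at least 200 genes per cell (0.0764), with marker gates (0.167) and with the unnamed epithelial clusters added (1.55, adjusted p = 0.383). The EY sums of Ccl5 rested in part on few cells. The 13 e3 cells of EY1 held 89 Ccl5 UMIs (317 CPM) and the 28 e3 cells of EY2 held 185 (516 CPM). In cluster e9, which held most EY epithelial cells, Ccl5 was only 6.15 and 7.51 CPM in EY. There it was 24.3 and 1.03 CPM in Y, 13.5 CPM in the 20 cells of N2 and 0 in the 1 cell of N1. Cd3e in epithelial cells reached at most 0.24% of the T cell level and Ccl5 at most 1.64%, and its part in the result was not tested.

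Xcl1 was a gene of NK-like cells, at 2200 CPM in their cluster, and of T cells at a lower level. In T cells it was 19.2 and 77.5 CPM in N, 566 and 175 CPM in E, 75.2 and 44.7 CPM in Y, and 48.0 and 430.3 CPM in EY. Both E libraries and EY2 were high, and neither E against N (2.82, SE 1.03, adjusted p = 1, edgeR) nor EY against N (2.29, SE 1.02, adjusted p = 0.427) was called. Without EY2 the change between EY and N was -4.48e-05. Its receptor Xcr1 in dendritic cells was 61.8 and 68.7 CPM in N, 47.5 and 20.7 CPM in E, 49.1 and 43.3 CPM in Y, and 21.1 and 138 CPM in EY (0.11, adjusted p = 0.968).

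The remaining members were close to the floor in the other classes. In epithelial cells Ccl17 did not exceed 1.53 CPM, Ccl22 0.293 CPM, Xcl1 0.493 CPM, Cxcr3 0.242 CPM, Cxcr6 1.05 CPM and Ccr7 0.837 CPM. In myeloid cells Xcl1 did not exceed 6.05 CPM, Cxcr3 6.28 CPM and Cxcr6 14.7 CPM. Dendritic cells held at most 10.2 CPM of Cxcr3 and a single UMI of Xcl1, and T cells at most 12.4 CPM of Ccl17 and 6.43 CPM of Ccl22.

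Over all T cell comparisons, no member was called between EY and N, between Y and N, by the E6-E7 effect or by the interaction with edgeR, where 0% of all genes passed in each. Of the 9 members 5, 4, 3 and 1 had an unadjusted p under 0.05, as did 1190, 356, 602 and 309 of all genes, and DESeq2 called 3, 0, 0 and 1 of the members and 71, 18, 14 and 22 of all genes.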

How the data were processed

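The authors deposited 1 matrix of UMI counts per library, made with Cell Ranger 5.0.0 against mm10 (GRCm38) according to the file header and the labels. Counts were used as deposited. A cell was retained if it had 1000 to 5500 genes, no more than 30000 UMIs and a mitochondrial share of 7% or less. Total counts were 46483469 to 102427359 UMIs per library. Cells were clustered with scanpy 1.11.5 (3000 variable genes without the chemokine genes, 30 principal components, 50 neighbours, Leiden resolution 0.3 with igraph 0.11.9, seed 1), and a cluster was named by its best marker list only with at least 3 markers detected. Clusters that did not meet this, 799 cells in 4 clusters, stayed unnamed and out of the comparisons. No doublet caller was applied, since Scrublet marked 125 cells (0.496%) and was counted as not having worked.

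For each library and class (at least 20 cells) the UMIs of all cells were added up, and these sums were tested in R 4.3.3 with edgeR 4.0.16 (quasi-likelihood test, TMM factors of 0.837 to 1.105, filterByExpr, Benjamini-Hochberg adjustment over all genes tested, called at an adjusted p under 0.05). The fit used all 8 libraries. Fold changes are on the fitted log2 scale after TMM scaling. Results are given for every member, with tests printed for those that were called and for most whose mean reached 20 CPM in a compared group. From each further gene list up to 4 called genes with at least 20 CPM in a compared group were named, by size of change, together with the receptors and ligands that partner the members. Alternatives were DESeq2 1.42.0, RLE factors, no low-count filter, other cell filters, resolution 1.0, per-cell marker gates, neutrophil-like cells added to the myeloid class, unnamed epithelial clusters added to the epithelial class, and each library left out. The restrictions to the T cluster with the highest Cd8b1 and the myeloid cluster with the highest C1qa were chosen after the data were seen. The members and gene lists were chosen with earlier results of these data known. The tests were tested on simulated data. Libraries shared at most 0.393% of the barcodes of the smaller library. Some genes are not reported here.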

Additional observations from a re-analysis of the deposited data

How the results depend on the processing

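Counts of called members were recomputed under each alternative and are given without the share of all genes called in the same fit. They show how the calls moved and do not set the members apart from other genes. Without a low-count filter they rose to 5 (Y against N), 3 (E against N), 5 (YAP effect), 3 (E6-E7 effect) and 1 (interaction) in epithelial cells, to 5 (EY against N), 2, 4, 2, 5 and 5 in myeloid cells, to 6 (EY against N), 4, 6, 7, 6 and 2 in dendritic cells, and to 6 (EY against N), 4, 2, 6, 4 and 1 in T cells. In those fits the prior degrees of freedom became infinite, so that the posterior variance of epithelial Cxcl9 was 0.547 in place of 18.6. DESeq2 called 3 by the YAP effect and 1 by the E6-E7 effect in epithelial cells, 1 by the interaction in myeloid cells, 1 by the E6-E7 effect in dendritic cells, and 3 (EY against N), 3 (YAP effect) and 1 (interaction) in T cells. With at least 200 genes per cell, the counts were 1 in epithelial and 1 in dendritic cells (EY against N), 1 in dendritic cells (YAP effect), and 0 in T cells (E against N and YAP effect). Without upper limits they were 3 (Y against N) and 2 (YAP effect) in epithelial and 1 (YAP effect) in dendritic cells. With Scrublet calls removed they were 1 and 1 in dendritic cells (EY against N and YAP effect) and 0 in T cells (YAP effect). Resolution 1.0 gave 2 (E against N) and 0 (YAP effect) in dendritic cells. Marker gates gave 0 (Y against N) and 2 (YAP effect) in epithelial, 2 (Y against N) and 1 (E against N) in dendritic, and 0 (E against N) in T cells. Unnamed epithelial clusters gave 1 (EY against N) and 0 (Y against N). The cluster with the highest Cd8b1 gave 3 (EY against N), 4 (YAP effect) and 1 (interaction). Apart from the absent filter, the cause was not tested.

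Leaving out 1 library gave 1 to 4 (EY against N), 0 to 1 (Y against N) and 1 to 2 (YAP effect) in epithelial cells, and 0 to 1 (interaction) in myeloid cells. It gave 1 to 4, 0 to 2, 0 to 1, 1 to 2, 0 to 1 and 0 to 1 (EY, Y and E against N, YAP effect, E6-E7 effect and interaction) in dendritic cells. In T cells it gave 0 to 1 (EY against N), 0 to 1 (E against N) and 0 to 2 (YAP effect). Where a group kept 1 library, that library was assumed to vary like the other groups. The sign turned in 6 values for single members between EY and N, none of them called. These were myeloid Cxcl16 in the cluster with the highest C1qa (0.46) and myeloid Ccl17 at resolution 1.0 (3.75), dendritic Ccl5 with Scrublet calls removed (-0.0783) and without EY1, T cell Ccl5 without N2, and T cell Xcl1 without EY2. Over the fits without 1 library, dendritic Ccl5 ranged from -0.59 to 0.77, T cell Ccl5 from -0.91 to 0.47, and T cell Xcl1 from -4.48e-05 to 3.79. No paired analysis was possible because the replicate numbers follow the order of the accessions and are not in the labels. Class sizes of 25 to 119 dendritic cells per library, and as few as 0 to 40 UMIs of Cxcr6 in them, limit what these sums can show.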

Other observations

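Several smaller cell classes carried members at levels that no comparison used. The fibroblast-like cluster (108 cells) held 1034 CPM of Cxcl9 on all libraries summed, with 524 to 1569 CPM in N1, N2, E1 and Y2, 216 CPM in the 2 cells of E2 and no UMI in the 4, 2 and 9 cells of Y1, EY1 and EY2. Ccl19 was found mainly there. Neutrophil-like cells held 342 CPM of Cxcl10 on all libraries summed. The plasmacytoid dendritic-like cluster (109 cells) held 76.9 CPM of Cxcr3, close to the 65.9 CPM mean of T cells. The type 2 innate lymphoid-like cluster (120 cells) held 278 CPM of Cxcr6, and Ccl1, a ligand of CCR8, reached 2379 CPM there in E2.

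NK-like cells held Xcl1 at 1272 and 1746 CPM in N, 3467 and 3763 CPM in E, 804 and 1101 CPM in Y, and 522 and 2116 CPM in EY. Both E libraries were the highest, and the cells numbered 19, 229, 74, 93, 81, 26, 38 and 2 in that order, so no test was made.

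Over the 23 clusters, 10773 genes were ranked by the Pearson correlation of their log2(CPM + 1) with each member, as a description in which clusters share libraries and lineage. Cxcl10 was most like the guanylate-binding protein gene Gbp2 (r = 0.912), followed by Gbp5 and Gbp3. Cxcl9 was most like Dab2 (0.855), Ccl2 and Ccl7, and Cxcl16 like Plekhm2 (0.857), Atox1 and Flt1. Ccl17 was most like H2-M2 (0.940), P2rx5 and C1qa, and Ccl22 like Timd4 (0.973), H2-M5 and Hapln3. Xcl1 was most like Prf1 (0.962), Crtam and Ifng, Ccl5 like AW112010 (0.899), Epsti1 and Ms4a6b, and Cxcr3 like Lag3 (0.962), Gpr174 and Slamf6. Cxcr6 was most like Cd226 (0.986), followed by Gm15472, and Ccr7 like Bcl2a1d (0.936), Slc36a3os and Cd83.

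Of 15 other chemokine ligands tested, 4 were called higher in epithelial cells of EY than of N and 1 lower, where 24.5% of all genes were called, among them the eotaxin gene Ccl11 (3.19) and the epithelial chemokine Cxcl14 (-3.04).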
